A study of Mus musculus with 4 samples.

Results

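The S100 calcium-binding proteins measured here were 10 mouse genes, namely S100a1, S100a4, S100a6, S100a8, S100a9, S100a10, S100a11, S100a13, S100a16 and S100b. They were taken by gene name from the array files, in which each had 1 probe, so the family made up 10 of 41174 non-control probes. The family was chosen by the ratios of these same arrays, since S100b was among the genes that rose most in all 3 treatments, so its levels and ratios are given as a description.

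3T3-L1 is a mouse fibroblast-like cell line whose preadipocytes turn into fat-storing adipocytes after hormonal induction. The cells were induced on day 0 with 10 μg/mL insulin, 1 μM dexamethasone and 0.5 μM IBMX, as the labels give it, and RNA of day 2 was hybridized with 1 dye to 4 Agilent whole-genome arrays that shared 1 slide. The 4 conditions were 0.1% DMSO as the solvent control, 100 μg/mL bilberry extract, 100 nM delphinidin and 100 nM cyanidin. There was 1 array per condition, with no replicates to set a difference against and hence no p-values, and the treatment, the culture and the place of the array on the slide cannot be told apart. All 3 treatments were set against the same DMSO array. The labels call the cells adipocytes, and 11 of 12 adipocyte markers and 11 of 11 preadipocyte and fibroblast markers were well above background on every array.

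Most S100 proteins are small proteins that bind calcium through a pair of EF-hands, form dimers and then bind target proteins. Inside the cell they act on the cytoskeleton, annexins, enzymes and transcription regulators, and several are also released and bind receptors such as RAGE (encoded by Ager) and Tlr4. S100b is best known from astrocytes and Schwann cells but is also made by adipocytes, S100a8 and S100a9 form the heterodimer calprotectin of neutrophils and monocytes, and S100a16 is known for a role in adipogenesis. Apart from S100b on chromosome 10, the members lie on chromosome 3.

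Because the results turn on S100b, S100a8 and S100a16, the 250 bases before their start sites are shown, with those of S100a9, the usual partner of S100a8. The sequences are those of RefSeq on GRCm38.p6, each read 5′ to 3′ toward the start. S100b is chr10:76253586-76253835 on the plus strand, S100a8 is chr3:90668821-90669070 on the plus strand, S100a16 has a first start at chr3:90537004-90537253 on the plus strand and a second at chr3:90540896-90541145 on the plus strand, and S100a9 is chr3:90695722-90695971 on the minus strand. Capitals mark letters that matched 1 of 9 short motifs on either strand.
S100b: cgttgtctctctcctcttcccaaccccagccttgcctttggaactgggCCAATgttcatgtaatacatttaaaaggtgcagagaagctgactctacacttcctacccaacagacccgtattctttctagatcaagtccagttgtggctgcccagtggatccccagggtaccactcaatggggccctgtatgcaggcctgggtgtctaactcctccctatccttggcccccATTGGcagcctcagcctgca
S100a8: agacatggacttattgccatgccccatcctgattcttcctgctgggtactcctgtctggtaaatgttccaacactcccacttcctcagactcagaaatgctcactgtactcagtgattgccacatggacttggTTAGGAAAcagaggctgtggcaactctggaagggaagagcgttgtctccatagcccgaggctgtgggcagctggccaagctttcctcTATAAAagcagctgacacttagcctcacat
S100a16, first start: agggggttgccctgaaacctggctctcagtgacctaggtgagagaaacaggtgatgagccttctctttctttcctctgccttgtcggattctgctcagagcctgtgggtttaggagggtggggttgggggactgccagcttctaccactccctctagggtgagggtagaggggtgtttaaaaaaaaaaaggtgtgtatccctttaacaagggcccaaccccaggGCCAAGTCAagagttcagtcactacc
S100a16, second start: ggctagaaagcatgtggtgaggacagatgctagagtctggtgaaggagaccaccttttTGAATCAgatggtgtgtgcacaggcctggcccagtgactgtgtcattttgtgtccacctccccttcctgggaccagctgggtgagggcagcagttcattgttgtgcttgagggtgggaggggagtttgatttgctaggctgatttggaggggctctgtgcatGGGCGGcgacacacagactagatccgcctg
S100a9: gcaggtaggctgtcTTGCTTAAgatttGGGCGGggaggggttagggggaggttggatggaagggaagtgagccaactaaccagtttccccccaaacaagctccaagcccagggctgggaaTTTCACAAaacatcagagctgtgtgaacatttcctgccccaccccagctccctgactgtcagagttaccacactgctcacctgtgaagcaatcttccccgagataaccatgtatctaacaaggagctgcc

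The motifs searched were the TATA box TATAAA, the GC box GGGCGG, the CCAAT box CCAAT, the cAMP response element TGACGTCA, the AP-1 site TGANTCA, the E-box CACGTG, the antioxidant response element core TGACNNNGC, the C/EBP site TTNNGNAA and AGAACA, a single arm of the palindromic glucocorticoid receptor element. The letters of the AP-1 site and of the antioxidant response element core can overlap. The S100b window held 2 CCAAT boxes, which began 202 and 20 bases before the start, and no TATA box. The S100a8 window held a TATA box 30 bases and a C/EBP site 117 bases before the start. The S100a9 window held C/EBP sites 236 and 130 bases and a GC box 223 bases before the start. The first S100a16 window held an antioxidant response element core 26 bases before the start, and the second held an AP-1 site 192 bases and a GC box 30 bases before it. No motif was found in the windows of all of S100b, S100a8 and S100a16.

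Several of these letters are common. Over the same window of 32851 RefSeq promoters, the TATA box was found in 12.4%, the GC box in 32.7%, the CCAAT box in 33.8%, the C/EBP site in 36.8% and that arm of the glucocorticoid receptor element in 16.1%. The AP-1 site was found in 6.75%, the E-box in 6.02%, the antioxidant response element core in 10.2% and the cAMP response element in 1.55%. The GC content of the windows was 53.6% for S100b, 50.8% for S100a8, 53.6% for S100a9, 53.2% for the first S100a16 window and 55.6% for the second, beside a median of 52.4% over all of them. A match is a description of the letters and was not tested for binding. Of the 10 members 9 had a sequence in the table, and S100a10 had none.

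The level of a probe is its background-subtracted processed signal divided by the 75th percentile of that signal on the same array, on a log2 scale. That percentile was 861 for DMSO, 576 for bilberry extract, 1009 for delphinidin and 1016 for cyanidin. A probe counted as changed when its signal was over 2 times or under 1/2 of that with DMSO. The error the scanner software gives was about 10.0% of the signal for the brighter members, which makes 0.20 on the log2 scale for a ratio, and it covers the spot but not the culture or the hybridization. Levels of single genes are compared between arrays for 1 probe only, since probes differ in brightness for the same RNA. The sums over marker lists given below are compared between arrays as well, and the brighter probes weigh more in them.

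On the bilberry array the size of every ratio depended on the scaling. Its 75th percentile was the lowest of the 4 arrays while its spike-in controls were brighter than on the DMSO array, by 0.93 on the log2 scale, against 0.00 for delphinidin and -0.03 for cyanidin. Scaling to those spike-in controls moved the median ratio of all genes under bilberry extract to -1.34, from 0.16. Bilberry ratios below are therefore relative to the bulk of the probes on that array, and since the spike-in scaling lowers each of them by 1.51, any bilberry log2 ratio between 0 and 1.51 turns below 0 with it. That value is given for each member but S100a9. Statements below on how many list genes passed 2-fold with bilberry extract hold for the 75th percentile scaling only. They were not counted again with the spike-in scaling, which moves more of them past 2-fold on the lower side. Normexp, another background correction, gave the bilberry array a background mean of -345 when fitted on all spots, beside -4.99 on the DMSO array. Refitted without marked spots, it gave -5.65 for bilberry extract. Bilberry values given below with normexp come from the fit on all spots unless the refit is named.

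S100b rose most of the members with a value in each of the 3 treatments. Its log2 level was -1.94 with DMSO, -0.22 with bilberry extract, -0.05 with delphinidin and -0.34 with cyanidin. The processed signals were 225, 495, 978 and 801 in the same order, with the DMSO array lowest and the 3 treated arrays close to one another on the scaled level. These levels gave 3.29-fold higher S100b with bilberry extract, 3.71-fold with delphinidin and 3.02-fold with cyanidin, or log2 ratios of 1.72, 1.89 and 1.59. Before any scaling the signal was already higher on all 3 treated arrays. The S100b probe, at chr10:75703680-75703739 on the plus strand of mm8, the build of the array files, was well above background on all 4 arrays, was not saturated, and was not marked for uneven signal on any. With the spike-in scaling the bilberry log2 ratio was 0.21, which is under 2-fold, and those of delphinidin and cyanidin were 2.12 and 1.86.

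S100a8, which encodes the calprotectin subunit that binds S100a9, was also over 2-fold higher in all 3 treatments, except with bilberry extract under the spike-in scaling, which turned the direction. Its log2 level was -3.32 with DMSO, -1.85 with bilberry extract, -2.20 with delphinidin and -2.19 with cyanidin, from processed signals of 86.4, 160, 219 and 222. The DMSO array was the lowest, and the delphinidin and cyanidin arrays were nearly equal. The ratios were 2.76-fold, 2.16-fold and 2.18-fold, or 1.47, 1.11 and 1.12 on the log2 scale. The spike-in scaling put S100a8 under bilberry extract at -0.04, and normexp put it at 0.73 under delphinidin and 0.72 under cyanidin, below 2-fold in both. The S100a8 probe, at chr3:90755783-90755842 on the plus strand of mm8, was well above background on every array.

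S100a16, a widely expressed member, passed 2-fold with bilberry extract only, and there the spike-in scaling turned the direction. Its log2 level was -0.49 with DMSO, 0.67 with bilberry extract, 0.28 with delphinidin and 0.33 with cyanidin, from processed signals of 611, 914, 1221 and 1280. The ratios were 2.23-fold, 1.70-fold and 1.77-fold, or 1.16, 0.77 and 0.83 on the log2 scale, so that the bilberry value lay just outside the 2-fold limit and the other values just inside it. With normexp the bilberry value was 0.87, below 2-fold, and with a refit of normexp it was 1.06, above it. The spike-in scaling gave -0.35 for bilberry extract, and 1.00 and 1.09 for delphinidin and cyanidin. The probe lies within chr3:90628053-90628304 of mm8, a span of 252 bases that is longer than the 60 bases most of the members' probes covered.

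**Figure D1:**
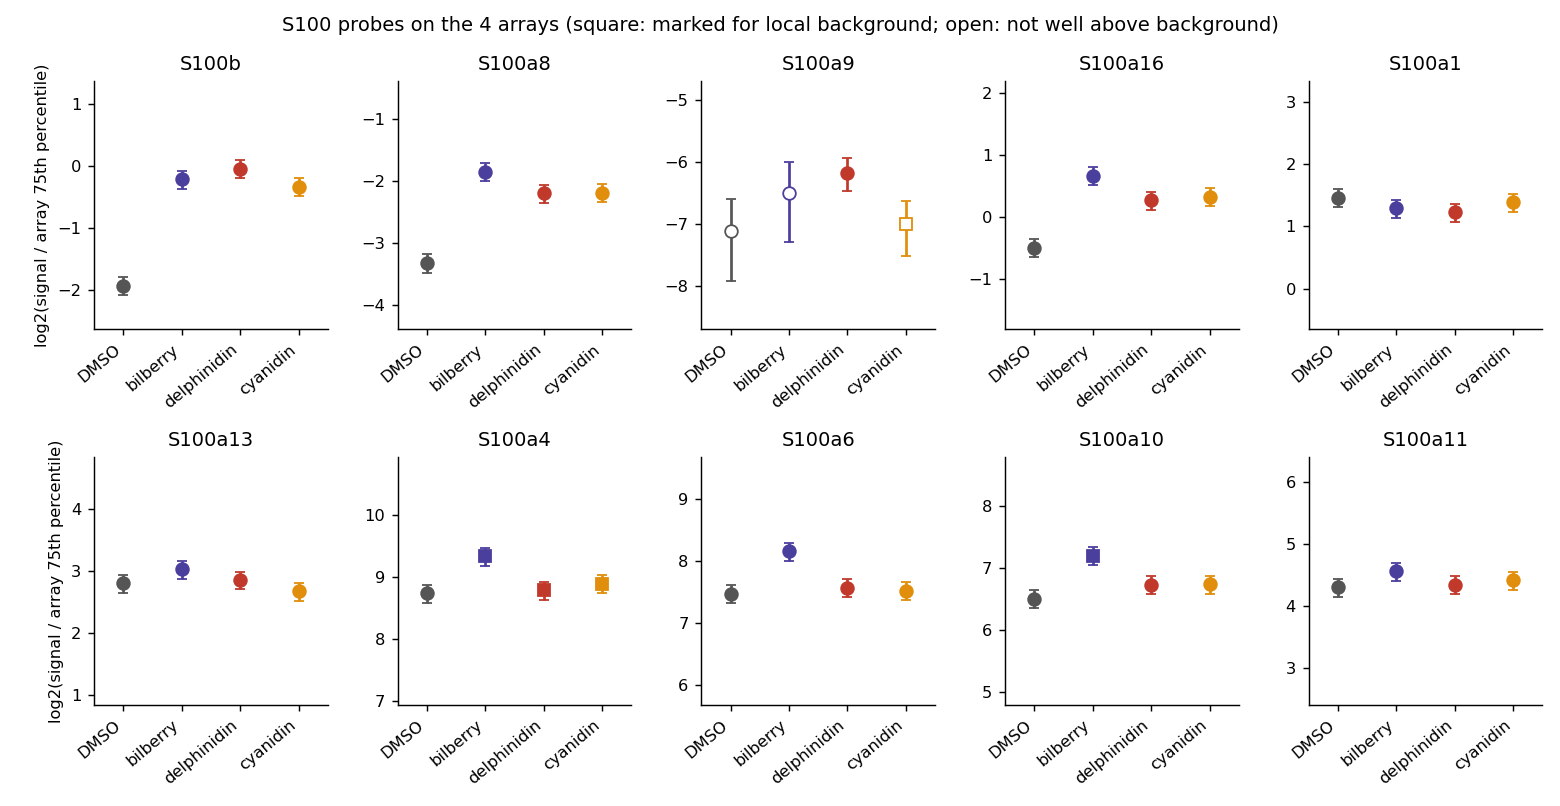
Log2 level (processed signal over the 75th percentile of the array) of each S100 probe on the 4 arrays, with error bars from the scanner software. Each panel spans the same range of log2 units around its own mean and squares mark spots that the software marked for their local background, open symbols those not well above background. For S100b, S100a8 and S100a16 the DMSO array is the lowest (with the spike-in scaling the bilberry array is lower for S100a8 and S100a16). S100a1, S100a11 and S100a13 stay within 0.5 log2 units of the DMSO array, except with bilberry extract under the spike-in scaling (-1.67, -1.25 and -1.28).

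S100a9 was close to the limit of detection. Its processed signal was 6.24 with DMSO, 6.36 with bilberry extract, 13.9 with delphinidin and 7.94 with cyanidin, and it was well above background only on the delphinidin array. The lowest signal of any probe well above background was 13 on the DMSO and bilberry arrays and 10.9 on the delphinidin and cyanidin arrays, so the delphinidin signal was hardly above those limits and gave no fold over DMSO. Over the cyanidin array it was at least 1.29-fold higher, on a cyanidin spot that the software marked for its local background. No change in the S100a9 partner could therefore be set beside that of S100a8 at this signal.

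Markers of the cells in which calprotectin is best known were looked at on the same arrays. Of 14 myeloid markers with a value on all 4 arrays, 7 were well above background on no array, among them Ptprc, which encodes the leukocyte antigen CD45, Itgam, Mpo, Ngp, Csf3r, Spi1 and Adgre1. A further 6 were well above background on all 4 arrays. The levels of all 14, summed within each array, came to 1.18 times its 75th percentile with DMSO, 1.27 with bilberry extract, 0.883 with delphinidin and 1.05 with cyanidin. Cd14, a coreceptor of Tlr4, contributed most to that sum, with log2 ratios of -0.13, -0.90 and -0.45. Without Cd14 the sum was 0.421 with DMSO, 0.583 with bilberry extract, 0.479 with delphinidin and 0.490 with cyanidin, and was thus higher in each treatment, except that the bilberry sum was 0.205 with the spike-in scaling. Of the 6 detected markers, 3 were higher than with DMSO under bilberry extract, 4 under delphinidin and 4 under cyanidin. With the spike-in scaling 0 were higher under bilberry extract. Their median log2 ratios were 0.21, 0.14 and 0.33, beside 0.16, -0.02 and 0.00 over all genes well above background. Camp, an antimicrobial peptide of neutrophils, had log2 ratios of 0.98, 0.52 and 0.52. Elane, the elastase of neutrophils, was well above background with DMSO only, where it was at least 1.30-fold higher than with bilberry extract, at least 2.71-fold higher than with delphinidin and at least 2.72-fold higher than with cyanidin. Csf1r, the receptor of macrophage colony-stimulating factor, was the 1 marker past 2-fold among those detected on all 4 arrays. It was at 1.16 on the log2 scale with bilberry extract and -0.35 there with the spike-in scaling. Over all genes well above background, 4.07% were over 2-fold higher with bilberry extract.

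The glial and melanocyte markers, cells in which S100b is best known, were handled in the same way. Of 11 markers, Gfap, Mog and Tyr were well above background on no array and 5 on all 4. The summed level of all 11 was 0.343 with DMSO, 0.418 with bilberry extract, 0.319 with delphinidin and 0.296 with cyanidin. Without Mitf it was 0.218, 0.368, 0.236 and 0.248 in the same order, so that the lower sums with delphinidin and cyanidin rested on that gene, and the bilberry sum without it was 0.129 with the spike-in scaling. Of the 5 detected markers, 4 were above DMSO with bilberry extract (0 when scaled to the spike-in controls), 3 with delphinidin and 2 with cyanidin. Their median log2 ratios were 0.22, 0.01 and -0.01, beside 0.16, -0.02 and 0.00 over all genes well above background. Mbp, a myelin protein, had 0.20, -0.43 and -0.23, and Sox10, the glial transcription factor, had 0.22, 0.01 and 0.02. Mitf, the melanocyte transcription factor, had log2 ratios of -1.33 with bilberry extract, -0.59 with delphinidin and -1.40 with cyanidin. Normexp moved the cyanidin value to -0.87. Its fit on all spots, with the background mean of -345 on the bilberry array, put the bilberry value at 1.24. Pmel, a melanosome protein, had 0.78, 0.11 and 0.48. Aqp4, the water channel of astrocytes, was well above background with bilberry extract only, at least 3.07-fold higher than with DMSO, or 1.08-fold with the spike-in scaling, and 2 other Aqp4 probes were above background on no array. Erbb3, a neuregulin receptor of Schwann cells, was well above background with delphinidin only, at least 1.29-fold higher than with DMSO, and 4 other Erbb3 probes were above background on no array. Whether other cells had a part in the S100b or S100a8 values was not tested beyond these levels.

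S100a6, S100a11, S100a10 and S100a4 stayed under 2-fold in all 3 treatments, except S100a11 with bilberry extract under the spike-in scaling. S100a6, or calcyclin, which binds Cacybp and annexins, had log2 levels of 7.47 with DMSO, 8.15 with bilberry extract, 7.57 with delphinidin and 7.52 with cyanidin. Its log2 ratios were 0.68, 0.10 and 0.05, and the spike-in scaling put the bilberry ratio at -0.83. S100a11, which binds annexin A1, had log2 levels of 4.30, 4.55, 4.34 and 4.41 in the same order and log2 ratios of 0.26, 0.04 and 0.11. The bilberry ratio of S100a11 was -1.25 with the spike-in scaling.

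S100a10, the p11 subunit that binds annexin A2, had log2 levels of 6.50 with DMSO, 6.73 with delphinidin and 6.73 with cyanidin. Its spot on the bilberry array was marked for its local background and gave 7.19 when kept. The log2 ratio was 0.23 with both anthocyanidins and 0.69 with bilberry extract on the marked spot, or -0.82 there with the spike-in scaling. S100a4, a partner of non-muscle myosin known from motile cells and fibroblasts, was marked on all arrays but that of DMSO. With the marked spots kept, its log2 levels were 8.73 with DMSO, 9.33 with bilberry extract, 8.78 with delphinidin and 8.88 with cyanidin, and its log2 ratios were 0.60, 0.05 and 0.15, the first of them -0.91 with the spike-in scaling. In all of these, the mark concerned the background around the spot and not the spot itself.

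S100a1, known best from heart and skeletal muscle, was the 1 member with a ratio under 1 in each treatment. Its log2 level was 1.46 with DMSO, 1.29 with bilberry extract, 1.23 with delphinidin and 1.39 with cyanidin. The log2 ratios of -0.17, -0.23 and -0.07 were close to the software error of 0.20 or below it, and the spike-in scaling moved them to -1.67, -0.01 and 0.20. S100a13, which takes part in the release of Fgf1, had log2 levels of 2.80, 3.02, 2.85 and 2.67 in the same order and log2 ratios of 0.23, 0.05 and -0.13, with -1.28 for bilberry extract under the spike-in scaling. The RefSeq promoters of S100a1, at chr3:90514331-90514580, and of S100a13, at chr3:90514185-90514434, overlap on opposite strands of GRCm38.p6. Neither gene came near 2-fold after the 75th percentile scaling.

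**Figure D2:**
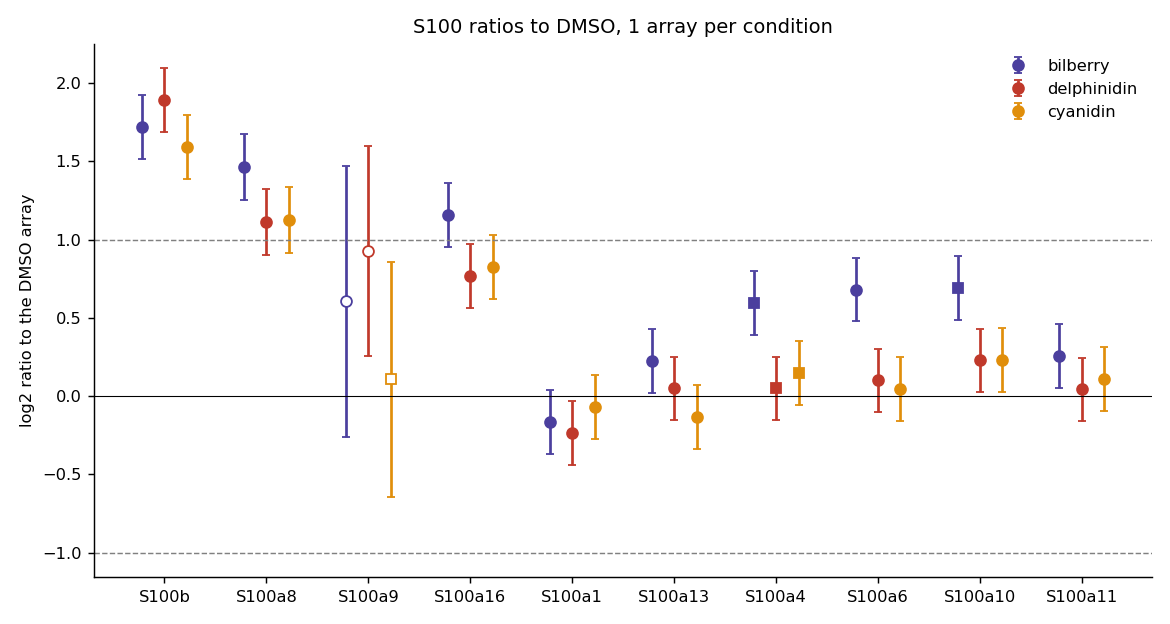
Log2 ratio of each S100 probe to the DMSO array for bilberry extract, delphinidin and cyanidin, with bars of 1 software error and dashed lines at 2-fold. Squares stand for ratios with a marked spot and open symbols for probes not well above background on both arrays. S100b lies between 1.59 and 1.89 and S100a8 between 1.11 and 1.47, while S100a16 crosses the line with bilberry extract only; the bilberry points hold for the 75th percentile scaling and move down together with the spike-in scaling.

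By count, 3 of the 8 members with a bilberry value were over 2-fold higher and 0 lower, beside 6.5% of all probes higher and 7.39% lower. With delphinidin 2 of 9 were higher and 0 lower, beside 2.63% and 4.26% of all probes. With cyanidin 2 of 8 were higher and 0 lower, beside 2.17% and 5.2%. The median log2 ratio of the members with a value was 0.64, 0.23 and 0.17, or 0.68, 0.10 and 0.11 for the 7 with a value on all 4 arrays, which were all well above background, beside 0.16, -0.02 and 0.00 over all genes well above background. S100b and S100a8 were higher in all 3 treatments, as were 132 of 39373 probes, or 0.335%. Among probes well above background on both arrays the shares higher and lower were 4.3% and 6.93% with bilberry extract, 1.08% and 1.84% with delphinidin, 0.595% and 2.23% with cyanidin, and 0.205% of the 21441 probes detected on each of the 4 arrays were higher in all 3 treatments. The choice of the family rests on these contrasts, so nothing is read from the counts. With the spike-in scaling the bilberry count became 0 higher and 3 lower, S100a1, S100a11 and S100a13.

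**Figure D3:**
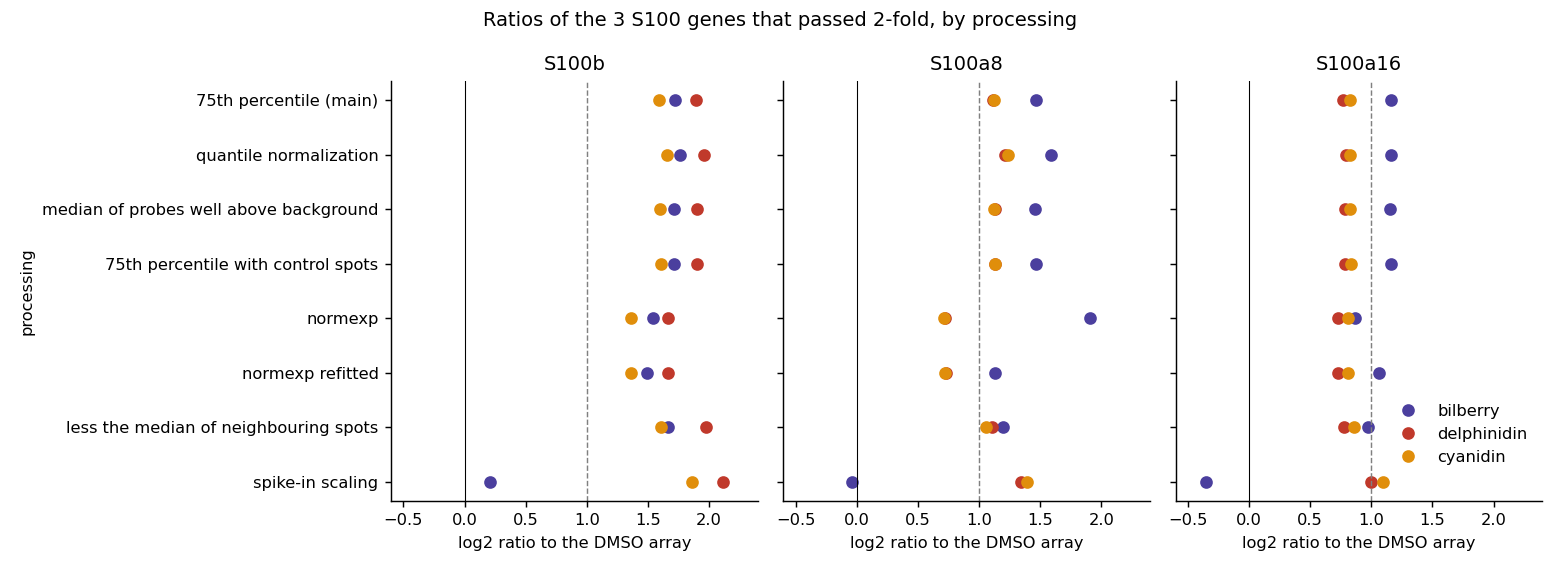
Log2 ratio to the DMSO array of S100b, S100a8 and S100a16 under 8 ways of processing, with a dashed line at 2-fold. The delphinidin and cyanidin points of S100b stay between 1.36 and 2.12, those of S100a8 fall below the line with both forms of normexp, and the bilberry points of all 3 genes drop to between -0.35 and 0.21 with the spike-in scaling.

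Delphinidin and cyanidin were given at the same dose and collected on the same day, and differ by an additional hydroxyl group on the B ring of delphinidin. They make 1 pair, described here with no test. The S100b log2 level was 0.30 higher with delphinidin, a ratio of 1.23-fold, against a software error of 0.20. S100a8 differed by -0.01, S100a10 by -0.00, S100a16 by -0.06, S100a6 by 0.05 and S100a11 by -0.07. S100a1 differed by -0.16 and S100a13 by 0.18. No member was past 2-fold between the compounds, of 8 with a value, where 3.55% of all probes were over 2-fold higher with delphinidin and 2.81% lower, or 0.662% and 0.498% of probes well above background on both arrays. With 1 array of each compound, the interval of these differences between cultures is unknown, and a small difference does not show that the compounds act alike. The bilberry extract was dosed by weight, so its values stand beside the others without a comparison of doses.

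The position of a spot on the array was examined as well. Within 10 rows and 10 columns of the S100b spot, 211 well measured neighbors had median log2 ratios of 0.06 with bilberry extract, -0.09 with delphinidin and -0.01 with cyanidin. For S100a8 the 212 neighbors had medians of 0.27, 0.01 and 0.06, and for S100a16 the 157 neighbors had medians of 0.18, -0.01 and -0.03. Less these medians, S100b stood at 1.66, 1.98 and 1.60. S100a8 stood at 1.20, 1.10 and 1.06, and S100a16 at 0.98, 0.78 and 0.86, which takes its bilberry value below 2-fold.

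Along chromosome 3 the members that passed 2-fold were not next to each other. In the order of GRCm38.p6 the genes run Chtop, S100a1, S100a13, S100a14, S100a16, S100a3, S100a2, S100a4, S100a5, S100a6, S100a7a, S100a8, S100a9 and Pglyrp4. S100a16 lies between S100a14, with log2 ratios of 0.54, 0.15 and 0.23 for bilberry extract, delphinidin and cyanidin, and S100a3, with 0.78, 0.01 and -0.03. S100a8 lies between S100a7a and S100a9, neither of which was well above background on all 4 arrays. Chtop, a chromatin-associated protein at the edge of the cluster, had log2 ratios of 0.54, 0.09 and 0.27. With delphinidin and cyanidin both measured neighbors of S100a16 thus lay between -0.03 and 0.23.

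S100a11 and S100a10 lie next to each other elsewhere on chromosome 3, between Tchhl1 and Tdpoz2. On chromosome 10, S100b lies between Prmt2, an arginine methyltransferase, and Dip2a. Prmt2 had log2 ratios of 0.55, 0.17 and 0.05 and Dip2a of 0.29, -0.07 and -0.05. S100b was chosen for its high ratios, so nothing is read from its distance to these neighbors. The spike-in scaling lowers every bilberry ratio by the same amount, which turns those of Prmt2, Dip2a, Chtop, S100a14 and S100a3 below 0.

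**Figure D4:**
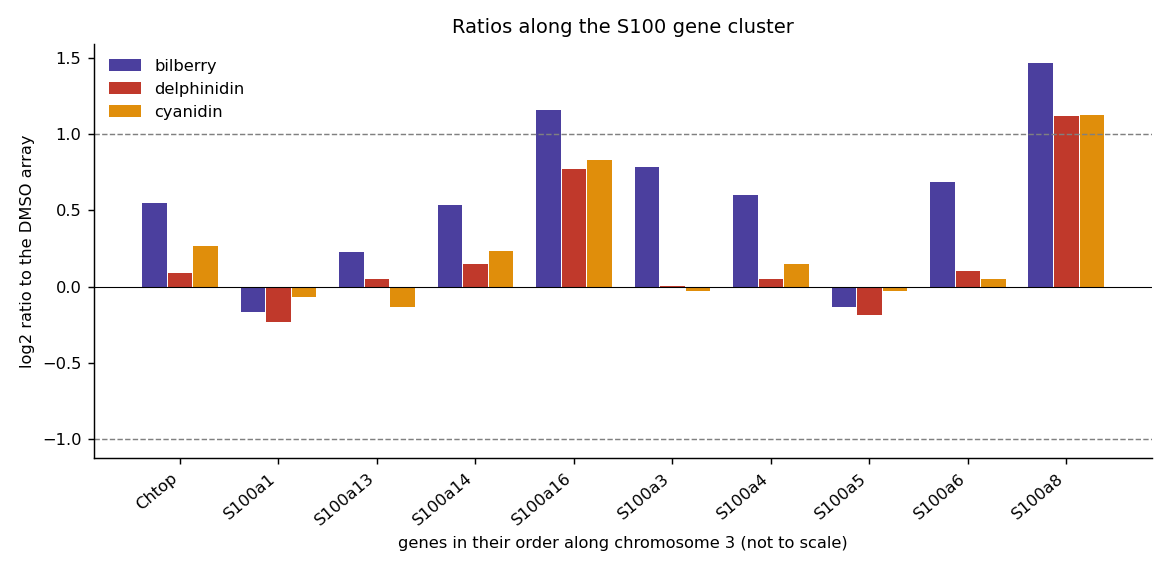
Log2 ratio to the DMSO array of the genes of the S100 cluster, in their order along chromosome 3, with dashed lines at 2-fold. S100a2 and Pglyrp4, which had no value, and S100a7a and S100a9, not well above background on every array, are left out; marked S100a4 spots are kept. S100a16 stands above both neighbors with delphinidin and cyanidin, while neither gene next to S100a8 could be plotted, and with the spike-in scaling every bilberry bar lies below 0.

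The other genes of the family were given by a fixed list of 7, of which 5 had a value on all 4 arrays. S100a3, S100a5, S100a14 and S100g were detected well above background on each array, and none passed 2-fold. Over all genes well above background, 4.07%, 1.26% and 0.719% were over 2-fold higher with bilberry extract, delphinidin and cyanidin. The shares over 2-fold lower were 6.6%, 2% and 1.72%. S100a5 had log2 ratios of -0.13, -0.19 and -0.03, and S100g, the calbindin of the intestine, had -0.12, 0.37 and 0.85. S100a7a, related to human psoriasin, went the other way from its neighbor S100a8. Its log2 level was -4.74 with DMSO, -5.94 with delphinidin and -5.16 with cyanidin, log2 ratios of -1.19 and -0.41. It was not well above background with bilberry extract, where DMSO was at least 1.66-fold higher, and with normexp the delphinidin ratio was -0.50. Of 7 genes of the fused-type S100 proteins of the skin barrier, 5 had a value on all 4 arrays and none was well above background on any array.

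Of 9 genes for receptors or cell surface partners of S100 proteins, 8 had a value on all 4 arrays, and 7 of those were detected, that is well above background, on each. By the probe that stood for the gene, none of these passed 2-fold with bilberry extract or delphinidin. Over all genes well above background, 4.07% and 1.26% were over 2-fold higher and 6.6% and 2% lower. Another probe of Erbb4 was well above background with bilberry extract only, at a log2 level of -4.39. Its signal with DMSO was not, so its ratio to DMSO is not exact, and the spike-in scaling lowers that ratio by 1.51. Alcam, a cell adhesion molecule, had no value with cyanidin because its spot was marked there, and had log2 ratios of -1.31 with bilberry extract, past 2-fold, and -0.43 with delphinidin. Ager, which encodes RAGE, the receptor shared by S100b, S100a8 and S100a9, had log2 levels of -4.45 with DMSO, -5.24 with bilberry extract, -4.30 with delphinidin and -3.04 with cyanidin. Its cyanidin array was the highest, with a log2 ratio of 1.41 to DMSO that fell to 0.66 with normexp, and delphinidin was lower than cyanidin by -1.26 on the log2 scale, or -0.72 with normexp. Tlr4, a receptor of S100a8, had log2 ratios of -0.13, -0.18 and -0.34. Bsg, or basigin, a receptor of S100a9, had 0.18, -0.24 and -0.22, and Fgfr1 had 0.44, 0.30 and 0.34. Scarb1, a scavenger receptor, had -0.63, -0.82 and -0.22.

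Of the binding partners, which include secreted and membrane proteins, 1 passed 2-fold in 1 treatment, bilberry extract. There 4.07% of all genes well above background were over 2-fold higher and 6.6% lower. Of 27 listed, 26 had a value on all 4 arrays and 20 were well above background on each, with median log2 ratios of 0.12, -0.05 and 0.03. Anxa2, the partner of S100a10, had 0.18, 0.11 and 0.08. Anxa1, the partner of S100a11, had -0.44, 0.07 and 0.10, and Cacybp, the partner of S100a6, had -0.59, 0.27 and 0.27. Sugt1, another target of S100a6, had -0.78, -0.14 and 0.02. Myh9, the non-muscle myosin bound by S100a4, had -0.06, -0.11 and -0.35. Stk38, a kinase activated by S100b, was the 1 partner past 2-fold by the probe that stood for the gene, at 1.04 with bilberry extract. The spike-in scaling turned it to -0.47, and that probe was dim, at a log2 level of -3.31 with DMSO. A brighter Stk38 probe, at 1.80 with DMSO, had no value with delphinidin because its spot was marked. It was at -0.50 with bilberry extract. Ahnak, a large scaffold protein bound by S100a10, was at -0.01 there by the probe that stood for it and at 1.10 by another, which the spike-in scaling also turns below 0. Fgf1, which is released with S100a13, was well above background with cyanidin only, at least 1.68-fold higher than with DMSO and at least 2.35-fold higher than with delphinidin, while the other Fgf1 probe was above background on no array.

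Among 45 other EF-hand proteins, 44 had a value on all 4 arrays and 34 were well above background on each. None of these was over 2-fold higher in any treatment by the probe that stood for the gene. Over all genes well above background that share was small too, at 4.07%, 1.26% and 0.719%. Another probe of Ncs1, a neuronal calcium sensor, was at 1.13 with bilberry extract, which the spike-in scaling turns below 0, and another of Calu, or calumenin, at -1.03. Tesc, or tescalcin, a calcineurin-like EF-hand protein, had log2 levels of -0.77 with DMSO, -2.70 with bilberry extract, -3.98 with delphinidin and -2.52 with cyanidin. Its log2 ratios were -1.93, -3.21 and -1.75, all on the lower side. The bilberry ratio was -0.34 with the normexp fit that gave that array a background mean of -345. Nucb2, the precursor of nesfatin, had -2.32 with bilberry extract, -0.46 with delphinidin and -0.33 with cyanidin. Myl6, a myosin light chain, had 0.40, -0.11 and -0.08, and all calmodulin genes stayed within 0.5 log2 units of DMSO.

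**Figure D5:**
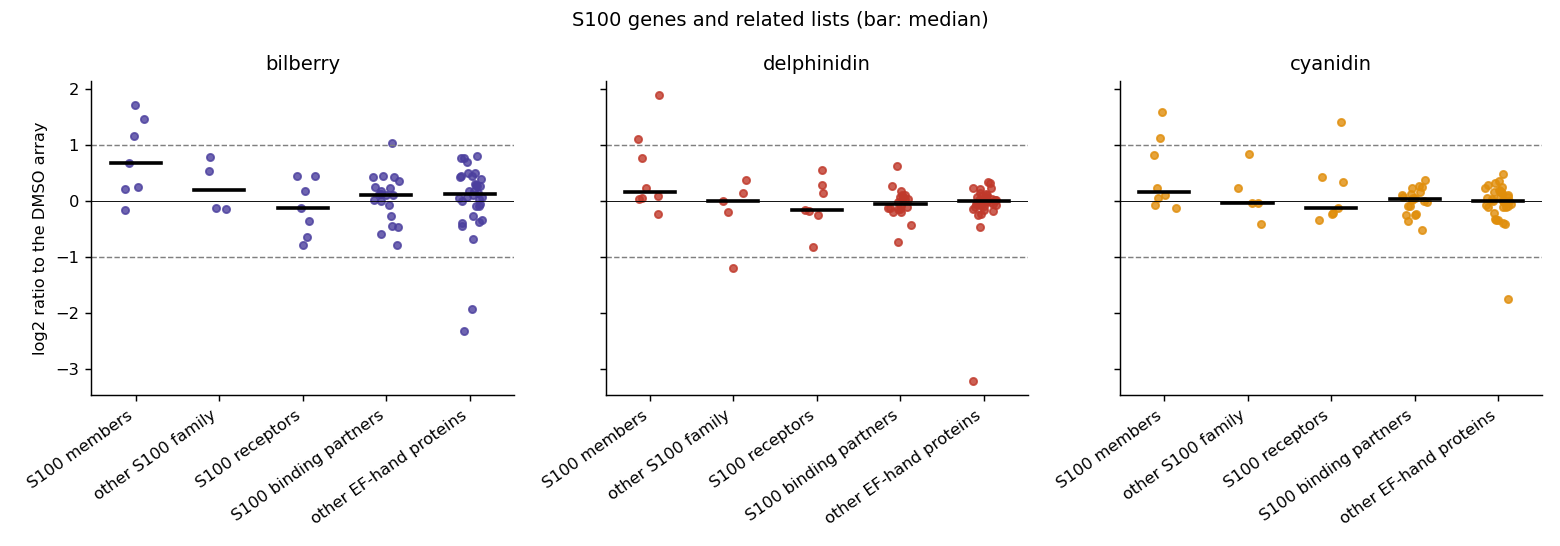
Log2 ratio to the DMSO array of the S100 members and of 4 related gene lists in each treatment, for probes well above background on both arrays, with a bar at the median. The points past the upper dashed line with delphinidin and cyanidin are S100b, S100a8 and, with cyanidin, Ager, and Tesc is the lowest point in both.

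The adipocyte and preadipocyte genes give the state of these cells beside the S100 values. With bilberry extract 3 of the 11 adipocyte markers well above background were over 2-fold lower, beside 6.6% of all such genes. These were Slc2a4 at -1.54, Retn at -1.08 and Adipoq at -1.07 on the log2 scale. With the normexp fit that gave the bilberry array a background mean of -345, Slc2a4 was at 0.08 and Adipoq at -0.69. Of the 11 adipocyte markers, 6 were above DMSO with bilberry extract, 7 with delphinidin and 9 with cyanidin. Their median log2 ratios were 0.02, 0.20 and 0.32, beside 0.16, -0.02 and 0.00 over all genes well above background. Pparg, the master regulator of adipogenesis, was at 0.15, 0.31 and 0.31, its bilberry value just below the median of all genes. Cfd, or adipsin, was higher with delphinidin at 1.15, or 0.94 with normexp, and cyanidin at 1.75. Of the preadipocyte markers Ly6a, or Sca-1, was lower in each treatment, at -2.13, -2.25 and -1.08, the last of them -0.81 with the spike-in scaling, and Thy1 was at -1.20, -0.94 and -0.87, past 2-fold with bilberry extract. Of the 11 preadipocyte markers, 4 were above DMSO with bilberry extract, 5 with delphinidin and 0 with cyanidin. Their median log2 ratios were -0.10, -0.13 and -0.19, and Dlk1, a preadipocyte surface protein, was at 0.31, 0.09 and -0.26. Both bilberry counts become 0 when scaled to the spike-in controls. Another probe of Fabp4 was at -1.25 and another of Col3a1, a collagen gene, at 1.03 with bilberry extract. The summed adipocyte level was 416 with DMSO, 296 with bilberry extract, 458 with delphinidin and 501 with cyanidin. Without Fabp4, the fatty acid binding protein that contributed most to that sum, it was 152, 159, 226 and 243. The summed preadipocyte level was 863, 966, 809 and 749 in the same order, and without the collagen gene Col1a2 it was 586, 563, 509 and 476. With the spike-in scaling the bilberry sums were 104 for the adipocyte and 339 for the preadipocyte markers, or 55.9 without Fabp4 and 198 without Col1a2. The part of these shifts in the S100 values was not tested.

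The genes whose pattern over the 4 arrays was nearest to S100b were sought among 12491 genes well above background on all of them. The measure was the Euclidean distance between the 4 log2 values, each less the gene's own mean. The 5 nearest were Ccnd1 at 0.28, Msln at 0.29, Spink8 at 0.31, Mmp3 at 0.32 and Adh1 at 0.35. Ccnd1, which encodes cyclin D1, had log2 ratios of 1.5, 1.53 and 1.28 for bilberry extract, delphinidin and cyanidin. Msln, or mesothelin, had 1.36, 1.70 and 1.24, and Mmp3, or stromelysin 1, had 1.77, 2.13 and 1.39. Spink8 had 1.5, 1.67 and 1.15, and Adh1, an alcohol dehydrogenase, had 1.33, 1.52 and 1.52. With the spike-in scaling the bilberry ratio was 0.26 for Mmp3 and -0.01, -0.15, -0.01 and -0.18 for Ccnd1, Msln, Spink8 and Adh1. With normexp the delphinidin and cyanidin ratios were 0.60 and 0.36 for Spink8 and 1.00 and 0.51 for Mmp3. The likeness rests on 4 arrays and the S100b values that chose it, and is a description.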

How the data were processed

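RNA of 3T3-L1 cells was hybridized with 1 dye to 4 Agilent arrays, 1 per condition. The values deposited by the authors are an intensity for each spot as the scanner software wrote it, and a table of the whole series with the same values (largest relative difference 0). The processed signal used here is that deposited intensity after the software subtracted the local background. It was divided by the 75th percentile of each array over its 43379 non-control spots and taken to log2 with no floor, whereas the methods of the study take that percentile over all measurements after setting a floor. Spots marked as outliers for signal or background were left out (701 to 875 per array), except where kept values are named. For each list gene the probe with the highest mean level and a value on all 4 arrays was used. Names were those in the files, and 24375 probes were named through their RefSeq accession with a table of GRCm38.p6. Probe coordinates are on mm8, and promoters are on GRCm38.p6.

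The members, lists and markers were chosen with earlier results of these data known. Named were all members, list genes past 2-fold or among those with the highest levels, flanking genes of the S100 loci and the 5 genes nearest to S100b. Partners of the members and further list genes were added with their values seen. The alternatives were quantile normalization and scaling to spike-in controls, to a percentile with control spots or to the median of well detected probes. Normexp was run with an offset of 50 and refitted without spots marked as outliers for signal or background. Other alternatives were marked spots kept, the deposited table, other thresholds and only probes well above background. Ratios less the median of neighboring spots were chosen after seeing the data. 1 gene of the glial and melanocyte list is not reported here and was left out of its counts. No test was made with 1 array per condition. The number of arrays limits the precision, and replicate spots of 245 probes had a median SD of 0.03 to 0.04 on the log2 scale within an array. Calculations were tested on simulated data and used Python 3.11.15, numpy 2.4.6, pandas 2.3.3, matplotlib 3.10.9, R 4.3.3 and limma 3.58.1.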

Additional observations from a re-analysis of the deposited data

How the results depend on the processing

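The S100b ratio stayed above 2-fold with delphinidin and cyanidin in all 9 alternatives, at 1.66 to 2.12 and 1.36 to 1.86 on the log2 scale, and with bilberry extract at 1.49 to 1.76 in 8 of 9, the exception being the spike-in scaling at 0.21. Among the 9, the deposited table and the marked spots kept could not move S100b, since the table held the same values and its spots were not marked. The percentile with control spots and the median of well detected probes shift all ratios of a comparison by 1 small constant. Both moved S100b with delphinidin from 1.89 to 1.90 only. All 9 use the same 4 arrays, on which S100b was chosen for its ratios, so they describe the processing and not the effect. The spike-in scaling turned the bilberry ratios of S100a8 to -0.043 and of S100a16 to -0.35, and gave 3 members past 2-fold, all lower, in place of 3 higher. The bilberry count was 5 at a 1.5-fold and 1 at a 3-fold threshold. The bilberry and delphinidin counts at 1.5-fold include S100a9, which was not well above background with DMSO. The delphinidin count of 2 became 1 with normexp, 1 with the refitted normexp, 3 with quantile normalization, 3 with the spike-in scaling, 4 at 1.5-fold and 1 at 3-fold. The cyanidin count of 2 became 1 with normexp, 1 with the refitted normexp, 3 with the spike-in scaling, 3 at 1.5-fold and 1 at 3-fold. The bilberry count stayed at 3 with normexp, but S100a16 fell to 0.87 while S100a9, not well above background, reached 2.56. With the refitted normexp S100a16 stayed past 2-fold at 1.06 and S100a9 was at 0.55. S100a9 was also the additional member with delphinidin under quantile normalization and the spike-in scaling. The planned normexp fit gave the bilberry array a background mean of -345, and the refit gave -5.65. The cause of the spike-in difference was not tested. Of the values recomputed for single members, 220 moved by less than 0.05 on the log2 scale, the SD of a ratio between replicate spots, and the others by more. The 220 include all values from the deposited table and with marked spots kept, which could not move. They also include all values from the percentile with control spots and the median of well detected probes. Those 2 settings shift each comparison by 1 constant below 0.05. Of all 297 recomputed values 18 had the opposite sign of the reported one, 8 of them under the spike-in scaling, and only the 2 named above had been past 2-fold. Signal over background limits S100a9. Another probe per member could not be tried, since each had 1. No paired analysis was possible because each condition had 1 array.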
